A study of Rattus norvegicus with 4 samples.

Results

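Gene expression in rat microvessels on a stiff extracellular matrix was compared with that on a soft one, both without A83-01, a drug that blocks the kinase activity of type I TGF-beta receptors. The comparison holds 1 library per matrix. Its members are the 13312 of 23608 genes in the table that reached at least 1 CPM in either library, CPM being counts per library total after scaling by trimmed mean of M-values (TMM). Of these, 12452 reached that level in both libraries, 556 only in soft and 304 only in stiff. The members differ from one another in level and function, and the contractile and cytokine genes among them are given here mainly by count.

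The soft group was a culture of primary, wild type rat vascular cells, taken from soft connective tissue under the skin and grown on the soft matrix. The stiff group was the same kind of culture on the stiff matrix. Both other groups of the series, soft and stiff with A83-01, differ from these only by the inhibitor, as far as the labels go. The study asks how stiffness and this inhibitor act on microvessels and on the change of pericytes into myofibroblasts. Neither the stiffness of each matrix, the inhibitor dose, the culture time nor the animals' age is given in the sources used here. Nor is it given whether the libraries came from separate animals or cultures.

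Cells feel the stiffness of their surroundings through integrins, receptors that tie matrix fibres to the actin cytoskeleton at focal adhesions. Tension on those sites alters transcription through the coactivators YAP and TAZ, myocardin-related factors and the release of latent TGF-beta from the matrix. In the microvessels of connective tissue, endothelial tubes are wrapped by pericytes, which lay down basement membrane with them and can turn into contractile, collagen-depositing myofibroblasts in scarring tissue.

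The soft library held 32475473 counts and the stiff one 33178552, and 3 counts, the floor used for ratios, equalled 0.0896 and 0.103 CPM. The 10 most abundant genes took 14.0% of the counts in soft and 21.8% in stiff, and Col1a1, a chain of collagen I, alone took 4.05% and 6.09%. Mitochondrially encoded transcripts held 4.72% and 3.86%. The TMM factors were 1.03 and 0.876. The labels name both stiff libraries in another form than both soft ones, so stiffness and a separate preparation cannot be told apart.

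Markers of microvessel cells were present on both matrices. Summed over 26 endothelial markers, the level was 2987 CPM on soft and 2520 CPM on stiff, with VE-cadherin, Cdh5, at 869.6 CPM on soft and 729.6 CPM on stiff. Von Willebrand factor, Vwf, another of them, fell, with 126 CPM on soft and 31.2 CPM on stiff, 4.03-fold lower (3.75 to 4.33). It was the only 1 of 25 measured endothelial markers at least 2-fold lower, and 0 were higher. A ratio below 1 was found in 19 of them, with a median log2 ratio of −0.19. Over 18 pericyte markers the sums were 4312 CPM on soft and 4862 CPM on stiff. Pdgfrb, the receptor that pericytes use to follow PDGF, stood at 1239 CPM on soft and 1591 CPM on stiff. Of the 14 measured pericyte markers, 10 had a ratio above 1 and 4 below, with a median log2 ratio of 0.32. Past 2-fold, 4 lay above their soft level (Des, Rgs5, Rgs4 and Heyl) and 2 below it (Cox4i2 and Steap4). The 17 fibroblast markers summed to 14406 CPM on soft and 3279 CPM on stiff. Most of that gap came from decorin, Dcn, described with the matrix genes. Of the 14 measured fibroblast markers, 7 had a ratio above 1 and 7 below, 2 were at least 2-fold higher and 3 lower, and the median log2 ratio was 0.06. The 10 adipocyte markers summed to 78.7 and 37.0 CPM and the 20 leukocyte and macrophage markers to 143 and 104 CPM. Cldn5 among the endothelial and Tcf21 among the fibroblast markers had 0 counts in both libraries. In bulk RNA, fewer cells of a type and less RNA per cell cannot be told apart. The part of these marker differences in the results that follow was not tested.

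Most genes differed little between the libraries. Of the 13312 genes, 9745 (73.2%) were within 1.5-fold, and 90% of log2 ratios of stiff over soft lay between −1.38 and 1.04. At least 2-fold higher on stiff were 704 genes (5.29%), and 1110 (8.34%) were at least 2-fold lower, each with a 95% interval of the count ratio that excluded 1. At 4-fold the numbers were 192 (1.44%) and 372 (2.79%). The tail of low genes was longer: 25 genes were past 64-fold lower, against 4 past 64-fold higher, and 49 genes had 0 counts in stiff against 11 in soft. These intervals cover counting error only, and 1 library per matrix gives no replicate check.

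The excess of lower genes lay below a mean of 50 CPM. Below 2 CPM, 27.4% of genes were 2-fold lower and 14.6% higher, from 2 to 10 CPM 11.9% and 6.74%, and from 10 to 50 CPM 4.68% and 2.95%. From 50 to 200 CPM the shares were 3.80% and 3.87%, and above 200 CPM 6.34% and 6.76%. The 704 higher genes took 6.52% of all counts in soft and 17.3% in stiff, and the 1110 lower genes 9.40% and 2.07%. Of the 1814 genes past 2-fold, 38.8% were higher. Scaling by total counts alone moved the median log2 ratio of all genes by −0.24 and that share to 24.5%. The deposited FPKM values, which are scaled by length and depth, gave a share of 24.8%.

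**Figure D1:**
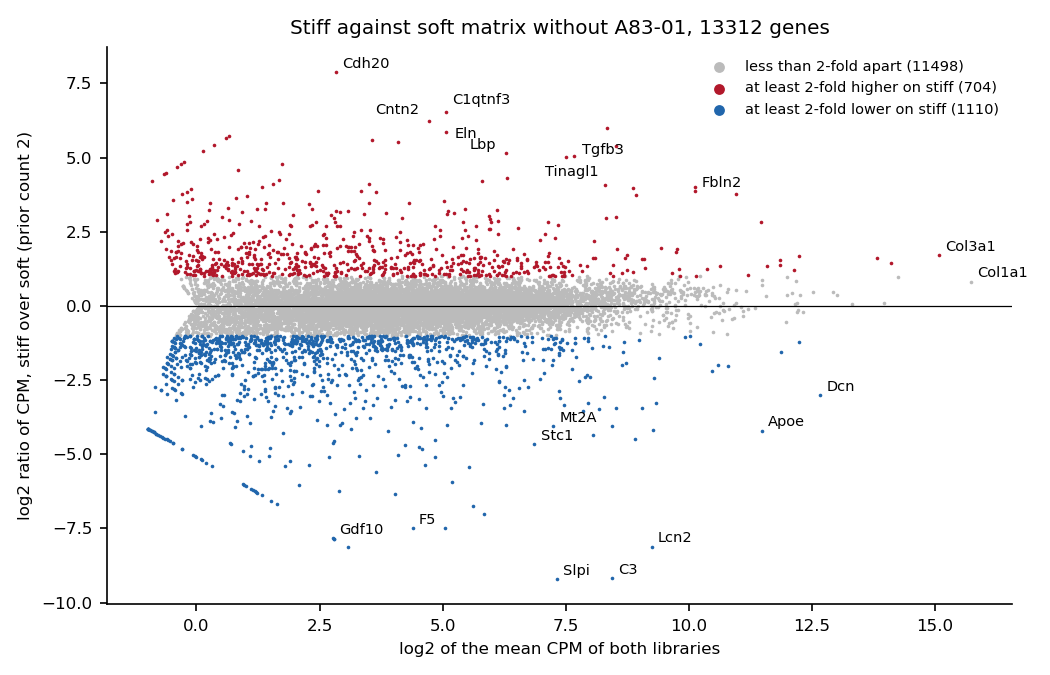
Each point is 1 of 13312 genes, with the log2 of its mean CPM in the soft and stiff libraries on the x axis and the log2 ratio of stiff over soft on the y axis. The 704 genes at least 2-fold higher are red and the 1110 at least 2-fold lower are blue, and the lower genes reach further from 0, with C3 at −9.18 and Slpi at −9.20.

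The expression minimum drew no sharp line. Just inside it were Bend7, with 1.02 CPM on soft and 0.585 CPM on stiff, and Lipt1, with 1.02 and 0.894 CPM. Just outside were Scara5, a scavenger receptor of fibroblasts, with 0.717 and 0.998 CPM, and Pcp4l1, with 0.568 and 0.998 CPM. By their higher library, 107 genes lay between 1 and 1.1 CPM and 121 between 0.9 and 1 CPM.

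The only test the design allows used all 4 libraries, with stiffness and inhibitor as additive terms and 1 residual degree of freedom. By the quasi-likelihood test of edgeR, with p-values adjusted after Benjamini and Hochberg, 319 of the 13312 genes (2.4%) rose on stiff matrix and 456 (3.43%) fell. Genes are written to rise or fall here only where they passed it. A gene whose response to stiffness depends on the inhibitor counts as spread in that model, so a large difference without A83-01 can fail it. Its p-values reflect spread among these 4 libraries alone, which may be technical.

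Among the 25 genes furthest above their soft level, ranked by the nearer bound of the counting interval, 6 were contractile genes and 2 had no gene name. The remaining 17 included adhesion molecules and matrix proteins. The cadherin gene Cdh20 had 0 counts on soft matrix but 413 on stiff, 159-fold higher at the floor of 3 counts, with an interval from 128. C1qtnf3, a secreted relative of complement C1q also known as CTRP3, stood at 0.657 CPM on soft and 66.2 CPM on stiff, 101-fold higher (66.3 to 161). Cntn2, a contactin that joins axons and glia, was at 0.627 CPM on soft and 52.3 CPM on stiff, 83.3-fold higher (54.3 to 135). All 3 were below 1 CPM on soft matrix and above 10 CPM on stiff. The group also held the elastic fibre genes Eln and Fbln2, the growth factor Tgfb3 and the lipopolysaccharide-binding protein Lbp, described with their families. Pmfbp1, a protein of the sperm head and tail junction, was at 0.418 CPM on soft and 23.3 CPM on stiff. The olfactory receptor genes Olr63 and Olr59 were also there, with 0.657 CPM on soft and 33.4 CPM on stiff for Olr63. Dync1i1, an intermediate chain of the dynein motor, had 0 counts on soft matrix but 74 on stiff and was at 0 counts in both A83-01 libraries.

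Among the 25 furthest below, 7 were cytokine genes and 4 had no gene name. The 14 others held secreted defence proteins, a clotting factor and receptors. Complement C3 was at 696 CPM on soft and 1.14 CPM on stiff, 613-fold lower (436 to 890.2). The protease inhibitor Slpi was at 318 CPM on soft and 0.482 CPM on stiff, 659.9-fold lower (393 to 1208). Coagulation factor V, F5, was at 41.8 CPM on soft and 0.172 CPM on stiff, 243-fold lower (104 to 749). Ackr4, a receptor that removes chemokines without signalling, was at 72.4 CPM on soft and 1.14 CPM on stiff, 63.7-fold lower (45.3 to 92.8). Gdf10, a TGF-beta family ligand, had 458 counts on soft matrix but 0 on stiff, 133-fold lower at the floor used for ratios. The calcium buffer Pvalb had 148 counts on soft matrix but 0 on stiff, 42.8-fold lower at that floor. Gdf10 and Pvalb did not pass the additive test, and both were detected on stiff matrix with A83-01, Gdf10 at 8.56 CPM. Sstr4, a somatostatin receptor, was at 8.40 CPM on soft and 0.0688 CPM on stiff. The macrophage marker Adgre1 was at 24.5 CPM on soft and 0.447 CPM on stiff.

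Genes were grouped into lists by function, and the plot of gene lists gives the median and quartiles of each. The members named below are the furthest apart and the textbook members of their list. No list was tested as a set. Its counts are to be read against the background shares of 5.29% and 8.34% past 2-fold. The median log2 ratio of all genes was 0.0042, so about as many ratios lay above 1 as below. Scaling by total counts alone moved it by −0.24, so small list medians depend on the scaling.

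**Figure D2:**
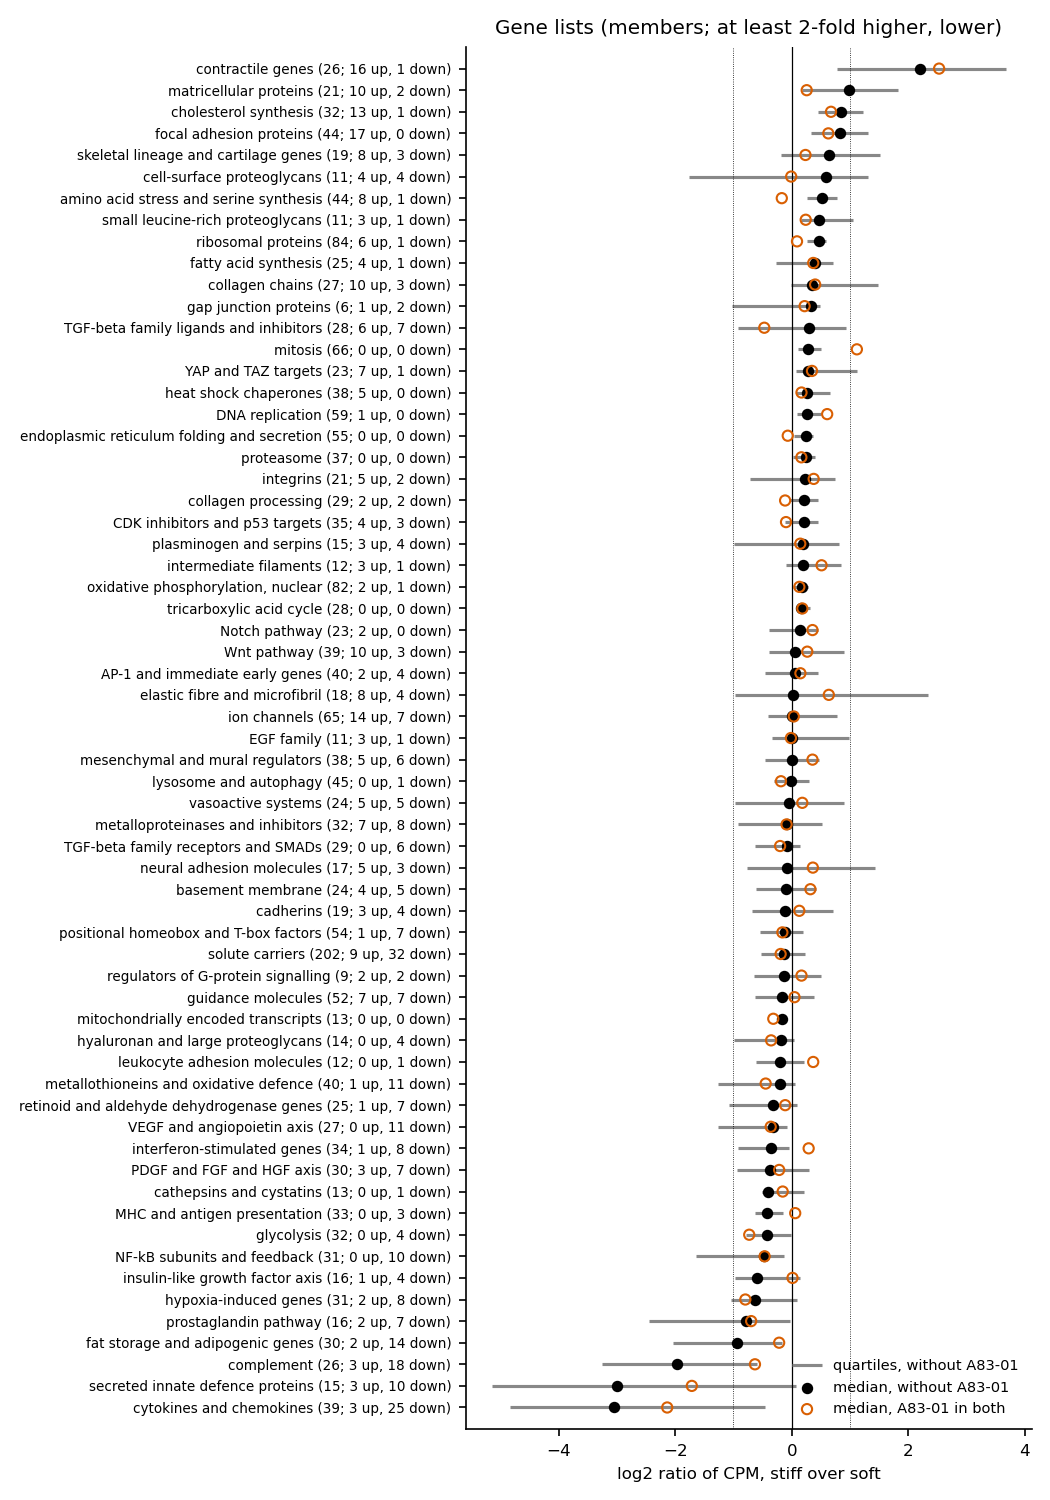
For gene lists with at least 5 measured members, the filled circle is the median log2 ratio of CPM (stiff over soft without A83-01), the bar its quartiles and the open circle the median of the pair with A83-01. Numbers in parentheses are the measured members and those at least 2-fold higher (up) and lower (down), from 16 of 26 contractile genes higher at the top to 25 of 39 cytokine genes lower at the bottom.

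Collagen genes were mostly higher on the stiff matrix. The minimum was reached by 27 of 42 chains listed, 20 of these had a ratio above 1, and 10 were at least 2-fold higher and 3 lower. Among the fibrillar chains, Col11a1, which starts thin fibrils, was at 8.10 CPM on soft and 79.2 CPM on stiff, 9.79-fold higher (8.62 to 11.1). Col3a1, the partner of collagen I in stretchy tissues, was at 15996 CPM on soft and 52984 CPM on stiff, 3.31-fold higher (3.30 to 3.32). The regulators of fibril width Col5a1 and Col5a3 were 2.63-fold higher (2.61 to 2.66) and 2.92-fold higher (2.89 to 2.95). The bead-forming microfibril chains Col6a1 and Col6a2 were 2.52-fold higher (2.49 to 2.54) and 2.32-fold higher (2.30 to 2.33). Col3a1 and the collagen V and VI genes did not pass the additive test, and Col6a5, a longer collagen VI chain, fell, with 7.41 CPM on soft and 1.48 CPM on stiff. Col1a1 stood at 39252 CPM on soft and 69475 CPM on stiff, 1.77-fold higher (1.77 to 1.77). Per transcript length, the deposited FPKM levels were 5600 and 8371 for Col1a1 and 2790 and 7804 for Col3a1, so the Col3a1 level came closer to that of Col1a1 on stiff.

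The sheet-forming and membrane collagens differed by chain. Col4a3, found in specialised basement membranes, was at 0.269 CPM on soft and 6.16 CPM on stiff, 22.9-fold higher (11.8 to 50.9). Col4a5 was at 14.8 CPM on soft and 48.4 CPM on stiff, 3.27-fold higher (2.95 to 3.63). The common chain Col4a1 was at 9965 CPM on soft and 10396 CPM on stiff, 1.04-fold higher (1.04 to 1.05). Col8a2, a short-chain collagen of vessel walls and corneal membranes, rose, with 6.45 CPM on soft and 28.8 CPM on stiff. Col14a1, a fibril-associated collagen, fell, with 138 CPM on soft and 71.8 CPM on stiff.

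Of 29 genes for collagen processing, 2 were 2-fold higher and 2 lower. Tll1, a procollagen C-proteinase, was at 3.85 CPM on soft and 18.9 CPM on stiff, 4.91-fold higher (4.05 to 5.99). The crosslinking oxidase Loxl2 was at 250.3 CPM on soft and 543 CPM on stiff. The related Loxl4 fell, with 22.9 CPM on soft and 10.9 CPM on stiff, and so did Adamts3, which trims procollagen ends, with 13.4 CPM on soft and 2.68 CPM on stiff. Lox itself was at 754 CPM on soft and 467 CPM on stiff, 1.61-fold lower (1.58 to 1.65), and the collagen chaperone Serpinh1 at 3326 CPM on soft and 5975 CPM on stiff, 1.80-fold higher (1.78 to 1.81). Neither passed the additive test.

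Elastic fibre genes stood far apart in both directions, 8 of 18 at least 2-fold higher and 4 lower. Elastin, Eln, the rubber-like core of these fibres, was at 1.08 CPM on soft and 66.3 CPM on stiff, 61.6-fold higher (44.4 to 88.3). Fbln2, a fibulin that joins elastin to other matrix, was at 143 CPM on soft and 2096 CPM on stiff, 14.7-fold higher (14.2 to 15.1). With A83-01 Eln was at 2.03 CPM on soft and 8.84 CPM on stiff, and Fbln2 at 9.79 CPM on soft and 17.0 CPM on stiff. Neither passed the additive test. Of the microfibril proteins that scaffold elastin, Fbn1 was at 362 CPM on soft and 1359.7 CPM on stiff, 3.75-fold higher (3.68 to 3.83). Fbn2, the developmental fibrillin, was at 8.96 CPM on soft and 52.7 CPM on stiff, 5.88-fold higher (5.19 to 6.67). Mfap5, Ltbp4 and Hmcn1 also rose, Hmcn1 with 13.5 CPM on soft and 109.8 CPM on stiff. On the lower side, Ltbp2 fell, with 237 CPM on soft and 59.7 CPM on stiff, as did the fibre-surface proteins Emilin1, with 485 CPM on soft and 184 CPM on stiff, and Emilin2. Mfap2 was at 4.42 CPM on soft and 0.722 CPM on stiff, and at 0.746 CPM on soft and 3.42 CPM on stiff with A83-01, the opposite order.

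Small leucine-rich proteoglycans bind collagen fibrils and growth factors, and 11 were measured. Dcn, which holds fibrils apart and binds TGF-beta, fell, with 11520.1 CPM on soft and 1442 CPM on stiff, 7.99-fold lower (7.91 to 8.07). Ogn rose, with 4.06 CPM on soft and 32.2 CPM on stiff, 7.93-fold higher (6.61 to 9.56). The fibril regulators Fmod, with 1.88 CPM on soft and 6.09 CPM on stiff, and Aspn, with 24.7 CPM on soft and 68.3 CPM on stiff, were higher without passing the test, and Bgn, closest in sequence to Dcn, was at 6495 CPM on soft and 8973 CPM on stiff. Lum was at 1249 CPM on soft and 839 CPM on stiff. Dcn was the only measured member at least 2-fold lower and 3 were at least 2-fold higher.

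Matricellular proteins are matrix proteins that signal rather than bear load. Of 21 measured, 10 were 2-fold higher and 2 lower, and 6 rose and 2 fell in the additive test. Tgfbi, a TGF-beta-induced integrin ligand, was at 34.8 CPM on soft and 591 CPM on stiff, 17.0-fold higher (16.0 to 18.03). Ctgf, a CCN family protein, was at 55.4 CPM on soft and 879 CPM on stiff, 15.9-fold higher (15.1 to 16.6). Its relatives Wisp2 and Nov rose, with 4.48 CPM on soft and 21.98 CPM on stiff and 24.4 CPM on soft and 58.1 CPM on stiff, and Cyr61, another, was at 489 CPM on soft and 667 CPM on stiff. Tnn, a tenascin of bone and tendon, was at 13.1 CPM on soft and 125 CPM on stiff, 9.53-fold higher (8.63 to 10.5), whereas Tnc, the tenascin of wounds, was at 2285 CPM on soft and 1196 CPM on stiff. Postn, periostin, was at 526 CPM on soft and 1243 CPM on stiff. Spp1, osteopontin, and Thbs2, an angiogenesis inhibitor, fell, with 119 CPM on soft and 25.4 CPM on stiff and 2859 CPM on soft and 699.5 CPM on stiff. The list's median log2 ratio was 0.98, and 0.26 in the pair with A83-01. Tgfbi, Tnn and Postn had log2 ratios of 1.17, -0.01 and -0.68 in that pair.

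Of 24 basement membrane genes, 4 were higher and 5 lower. Tinagl1, a matricellular protein of vessel walls, was at 10.9 CPM on soft and 353 CPM on stiff, 32.4-fold higher (29.2 to 36.0). Nid1, which joins laminin to collagen IV, was at 754 CPM on soft and 1517 CPM on stiff. Lama3, a laminin chain of epithelia, was at 6.72 CPM on soft and 1.03 CPM on stiff. Lama1 had 36 counts on soft matrix but 0 on stiff. The vascular chains Lama4, at 1118 CPM on soft and 917 CPM on stiff, and Lama5, at 83.4 CPM on soft and 131 CPM on stiff, were within 2-fold.

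Among proteoglycans of the cell surface, which hold growth factors near their receptors, 4 of 11 were higher and 4 lower. The glypicans Gpc1 and Gpc4 were at 201 CPM on soft and 655 CPM on stiff and 32.7 CPM on soft and 90.1 CPM on stiff, while Gpc3 was at 35.1 CPM on soft and 5.40 CPM on stiff, 6.50-fold lower (5.50 to 7.73). Sdc4, the syndecan of focal adhesions, fell, with 122 CPM on soft and 20.7 CPM on stiff, 5.86-fold lower (5.38 to 6.40), and Sdc1 was at 139.5 CPM on soft and 314 CPM on stiff. Of 14 genes for hyaluronan and large proteoglycans, none was 2-fold higher and 4 were lower, among them versican, Vcan, with 1310.2 CPM on soft and 629.9 CPM on stiff, and the hyaluronan crosslinker Tnfaip6, with 30.0 CPM on soft and 12.1 CPM on stiff.

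Of 32 metalloproteinases and inhibitors, 7 were higher and 8 lower. Several secreted proteases that open collagen and basement membrane were lower. Stromelysin, Mmp3, fell, with 65.8 CPM on soft and 6.02 CPM on stiff, 10.9-fold lower (9.37 to 12.8), as did the related Mmp10, with 15.7 CPM on soft and 1.58 CPM on stiff, and the gelatinase Mmp9, with 2322 CPM on soft and 513 CPM on stiff, 4.52-fold lower (4.45 to 4.604). The collagenase Mmp13 and the gelatinase Mmp2 were at 18.4 CPM on soft and 6.78 CPM on stiff and 6744 CPM on soft and 2914 CPM on stiff. The neutrophil collagenase Mmp8 was higher, at 0.269 CPM on soft and 1.27 CPM on stiff, 4.73-fold higher (2.24 to 11.2). Mmp28 and Mmp17, a protease anchored in the membrane, rose, with 1.28 CPM on soft and 8.84 CPM on stiff and 5.26 CPM on soft and 29.8 CPM on stiff. Mmp14, which activates Mmp2, was at 4740.1 CPM on soft and 3271 CPM on stiff, and the inhibitor Timp1 at 676 CPM on soft and 688 CPM on stiff. Around plasmin, 3 of 15 genes were higher and 4 lower. Serpine2, a thrombin inhibitor, and the urokinase Plau rose, with 154 CPM on soft and 586 CPM on stiff and 22.3 CPM on soft and 47.6 CPM on stiff.

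**Figure D3:**
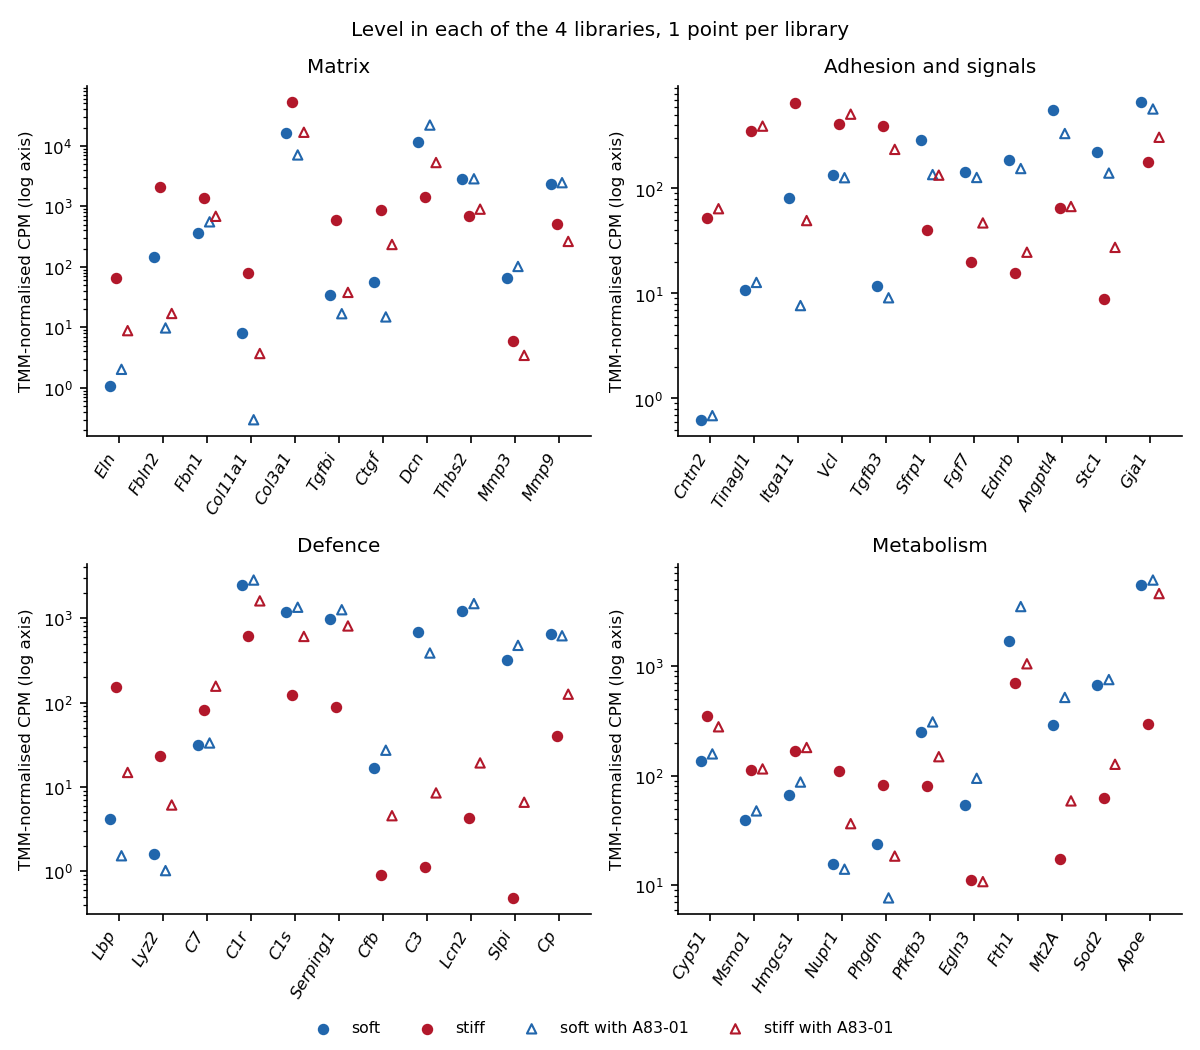
TMM-normalised CPM on a log axis of the genes named on the x axis, with 1 point per library: circles without A83-01, triangles with it, blue for soft and red for stiff. On soft and stiff without A83-01 the circles of Eln, Fbln2, Cntn2, Tgfb3 and Lbp lie higher on stiff, and those of Dcn, Mmp3, C3, Lcn2, Slpi and Apoe lower.

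Focal adhesion proteins had no member 2-fold lower. Of 44, 17 were at least 2-fold higher, 38 had a ratio above 1, and 15 rose and 0 fell in the additive test. The median log2 ratio was 0.83, and 0.63 with A83-01. Of the actin linkers, Vcl, vinculin, which reinforces loaded adhesions, was at 134 CPM on soft and 411 CPM on stiff, 3.08-fold higher (2.97 to 3.19). Actn1, which bundles actin, was at 264 CPM on soft and 787 CPM on stiff, 2.98-fold higher (2.91 to 3.05). The LIM proteins Fhl1, with 14.4 CPM on soft and 109.8 CPM on stiff, and Csrp1, with 377 CPM on soft and 1325 CPM on stiff, rose, as did the actin scaffolds Synpo2 and Nexn. Synpo2 was at 7.56 CPM on soft and 67.2 CPM on stiff, 8.89-fold higher (7.79 to 10.2). Csrp2 was at 18.3 CPM on soft and 70.8 CPM on stiff, with a log2 ratio of -0.59 in the pair with A83-01. Zyxin, Zyx, and paxillin, Pxn, were at 337 CPM on soft and 417 CPM on stiff and 86.9 CPM on soft and 78.9 CPM on stiff.

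Of 21 integrin subunits, 5 were higher and 2 lower. Itga11, the collagen I receptor of myofibroblasts, rose, with 81.1 CPM on soft and 648 CPM on stiff, 7.99-fold higher (7.68 to 8.33). Itga8, a mural receptor for RGD ligands, rose too, with 18.1 CPM on soft and 84.0 CPM on stiff, and so did Itga9 and Itga6. Itga1, another collagen receptor, rose by less, with 44.8 CPM on soft and 74.9 CPM on stiff. The fibronectin receptor chain Itga5 was at 456 CPM on soft and 517 CPM on stiff. Itgal, an integrin of leukocytes, was at 2.27 CPM on soft and 0.860 CPM on stiff.

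Targets of YAP and TAZ were divided. Of 23, 7 were higher and 1 lower, and 4 rose. Besides Ctgf these were Tgfb2, Ajuba and Crim1. The growth factor Tgfb2 was at 21.7 CPM on soft and 118 CPM on stiff, 5.42-fold higher (5.00 to 5.88). Ajuba, a LIM protein that relays tension, was at 31.5 CPM on soft and 73.2 CPM on stiff, 2.32-fold higher (2.16 to 2.51). Ankrd1, a common reporter of this pathway, was at 1.70 CPM on soft and 1.51 CPM on stiff. Nt5e, the ectonucleotidase CD73, was at 40.9 CPM on soft and 11.2 CPM on stiff, 3.65-fold lower (3.23 to 4.13).

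Cell to cell adhesion genes differed one by one. Beside Cdh20, the cadherins Cdh3 and Cdh6 rose, Cdh3 with 0.179 CPM on soft and 6.54 CPM on stiff, 36.5-fold higher (16.4 to 101). Cdh2, N-cadherin, which joins pericytes to endothelium, fell, with 119.5 CPM on soft and 55.2 CPM on stiff, as did the large planar polarity cadherins Dchs1 and Fat4, with 294 CPM on soft and 104 CPM on stiff for Dchs1. Of 17 adhesion molecules best known from nerve, 5 were higher and 3 lower. Ncam1 and Cadm4 rose, with 42.9 CPM on soft and 282 CPM on stiff and 44.2 CPM on soft and 209 CPM on stiff, and Flrt2 and Cadm1 fell, with 110.4 CPM on soft and 25.3 CPM on stiff and 14.6 CPM on soft and 3.41 CPM on stiff. The Schwann cell marker Sox10 was low in both libraries, at 1.79 CPM on soft and 1.27 CPM on stiff. Of 6 gap junction genes, Gja1, the main connexin of mural cells, was at 668 CPM on soft and 178 CPM on stiff, 3.75-fold lower (3.64 to 3.86). The arterial Gja5 was at 0.388 CPM on soft and 4.30 CPM on stiff. Krt7, a keratin, was at 6.81 CPM on soft and 1.10 CPM on stiff, and Vim, the mesenchymal filament, at 4862 CPM on soft and 6803 CPM on stiff.

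Ligands of the TGF-beta family split between isoforms and modulators, 6 of 28 higher and 7 lower. Tgfb3 was at 11.8 CPM on soft and 393 CPM on stiff, 33.2-fold higher (30.0 to 36.8). Tgfb2 is given with the YAP targets. Tgfb1 was at 391 CPM on soft and 505 CPM on stiff, within 2-fold. Lrrc32, which docks latent TGF-beta on the cell surface, rose, with 93.2 CPM on soft and 232 CPM on stiff. Inhibitors of BMP signalling went both ways: Chrd, chordin, rose, with 2.03 CPM on soft and 10.3 CPM on stiff, and Nog, noggin, fell, with 7.80 CPM on soft and 0.998 CPM on stiff. The BMP antagonists Chrdl1, with 54.4 CPM on soft and 9.19 CPM on stiff, and Nbl1, with 409 CPM on soft and 81.4 CPM on stiff, were lower without passing the test. Inhbb, an activin chain, fell, with 50.0 CPM on soft and 13.9 CPM on stiff. The median of the list, 0.30, was −0.0073 with no expression minimum, so the list has no direction.

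Receptors and SMADs of the family had 0 of 29 higher and 6 lower. Id1, a direct BMP target, fell, with 25.9 CPM on soft and 6.67 CPM on stiff, 3.88-fold lower (3.32 to 4.56), while Id3 was at 206 CPM on soft and 125 CPM on stiff. Tgfbr3, the coreceptor betaglycan, was at 197 CPM on soft and 72.1 CPM on stiff. Smad3 was at 75.2 CPM on soft and 36.7 CPM on stiff. The signalling receptors Tgfbr1, at 21.5 CPM on soft and 21.1 CPM on stiff, and Tgfbr2, at 196 CPM on soft and 169.7 CPM on stiff, and the feedback inhibitor Smad7, at 16.4 CPM on soft and 12.5 CPM on stiff, were within 2-fold.

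Of 39 Wnt pathway genes, 10 were higher and 3 lower. Sfrp1, a secreted inhibitor that binds Wnts, was at 291 CPM on soft and 39.9 CPM on stiff, 7.31-fold lower (6.88 to 7.77), and its log2 ratio with A83-01 was -0.02. Sfrp2 fell, with 92.6 CPM on soft and 30.8 CPM on stiff, and Sfrp4 rose, with 1.28 CPM on soft and 8.57 CPM on stiff. Of the receptors, Fzd8 rose, with 3.70 CPM on soft and 16.1 CPM on stiff, and Fzd2 was at 130.0 CPM on soft and 401 CPM on stiff. Nkd1, a feedback inhibitor, rose, with 9.20 CPM on soft and 36.2 CPM on stiff, whereas Axin2, the usual target of the pathway, was at 15.7 CPM on soft and 16.3 CPM on stiff. In the Notch pathway Jag1, a ligand on mural cells, and Heyl, a mural target gene, rose, with 40.5 CPM on soft and 90.9 CPM on stiff and 106 CPM on soft and 235 CPM on stiff, and none of 23 was 2-fold lower. Notch3 was at 365 CPM on soft and 498 CPM on stiff.

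Angiogenic factors were lower on the stiff matrix. Of 27 genes of the VEGF and angiopoietin axis 24 had a ratio below 1, 11 were at least 2-fold lower and 0 higher, and 5 fell in the additive test. Angptl4, a fasting- and hypoxia-induced lipase inhibitor, fell, with 554 CPM on soft and 65.5 CPM on stiff, 8.46-fold lower (8.07 to 8.87). Vegfd, a lymphangiogenic factor, was at 319.6 CPM on soft and 73.0 CPM on stiff, 4.38-fold lower (4.18 to 4.59). Angpt1, the pericyte ligand that keeps vessels quiet, was at 33.0 CPM on soft and 13.7 CPM on stiff, 2.41-fold lower (2.15 to 2.71). Vegfa was at 336 CPM on soft and 159 CPM on stiff, 2.12-fold lower (2.05 to 2.20), and at 282 CPM on soft and 50.4 CPM on stiff with A83-01. Adm, adrenomedullin, was at 121 CPM on soft and 20.7 CPM on stiff, 5.84-fold lower (5.36 to 6.37). Apln was at 220.1 CPM on soft and 92.2 CPM on stiff. Of the endothelial genes, the VEGF receptor Kdr was at 210.2 CPM on soft and 106 CPM on stiff, the angiopoietin receptor Tek at 8.90 CPM on soft and 8.67 CPM on stiff and Angpt2, its antagonist, at 186 CPM on soft and 172 CPM on stiff.

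Several mesenchymal growth factors of the FGF and HGF families were lower too. Fgf7, which acts on epithelia, fell, with 143 CPM on soft and 20.0 CPM on stiff, 7.19-fold lower (6.59 to 7.85), as did Fgf10, with 13.1 CPM on soft and 0.998 CPM on stiff, and Hgf, with 14.8 CPM on soft and 2.30 CPM on stiff, 6.43-fold lower (4.97 to 8.43). Pdgfra, the PDGF receptor of fibroblasts, was at 1054 CPM on soft and 198 CPM on stiff, 5.32-fold lower (5.18 to 5.48), while Pdgfb, the endothelial ligand for pericytes, was at 213 CPM on soft and 174 CPM on stiff. Pdgfrl and Fgfr3 rose, Pdgfrl with 22.2 CPM on soft and 63.2 CPM on stiff. In all, 3 of 30 were higher and 7 lower. Pdgfra is also one of the fibroblast markers whose median log2 ratio was 0.06, and their part in this difference was not tested.

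In the insulin-like growth factor axis, 1 of 16 genes was higher and 4 lower. Stc1, a secreted inhibitor of the protease that frees IGF, fell, with 224 CPM on soft and 8.91 CPM on stiff, 25.1-fold lower (22.2 to 28.6). Pappa, that protease, fell as well, with 23.4 CPM on soft and 4.23 CPM on stiff, 5.52-fold lower (4.56 to 6.73). The binding proteins Igfbp4 and Igfbp5 were at 1039 CPM on soft and 309 CPM on stiff and 245 CPM on soft and 91.3 CPM on stiff, and Igfbp6 rose, with 6.42 CPM on soft and 18.5 CPM on stiff. Of 11 EGF family genes 3 were higher and 1 lower, including Nrg1, with 2.03 CPM on soft and 8.02 CPM on stiff, and Hbegf, with 12.9 CPM on soft and 25.9 CPM on stiff. Guidance molecules had 7 of 52 higher and 7 lower. Ntn1 fell, with 6.90 CPM on soft and 0.826 CPM on stiff, Draxin was at 8.90 CPM on soft and 1.03 CPM on stiff and Sema5b rose, with 4.57 CPM on soft and 14.7 CPM on stiff.

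Genes that set vessel tone differed in both directions. Soluble guanylate cyclase genes rose: Gucy1a3, with 19.7 CPM on soft and 48.5 CPM on stiff, Gucy1b3, with 26.4 CPM on soft and 82.1 CPM on stiff, and Gucy1a2, with 1.17 CPM on soft and 5.85 CPM on stiff. These encode the nitric oxide receptor of mural cells. Ednrb, the B receptor of endothelin, fell, with 186 CPM on soft and 15.8 CPM on stiff, 11.8-fold lower (10.7 to 13.0), and the A receptor Ednra was at 89.8 CPM on soft and 99.8 CPM on stiff. The serotonin receptors Htr1b and Htr2a fell, Htr2a with 40.3 CPM on soft and 11.6 CPM on stiff, and the natriuretic clearance receptor Npr3 fell, with 21.9 CPM on soft and 6.81 CPM on stiff. Agtr1a, the angiotensin receptor, was at 42.7 CPM on soft and 21.7 CPM on stiff. Of the regulators that switch such receptors off, Rgs5 and Rgs4 rose, with 21.9 CPM on soft and 83.4 CPM on stiff and 21.6 CPM on soft and 57.8 CPM on stiff, and Rgs2 fell, with 163 CPM on soft and 23.7 CPM on stiff, 6.88-fold lower (6.35 to 7.45).

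Prostaglandin genes were lower, 7 of 16 against 2 higher, and 6 fell and 0 rose. Both cyclooxygenases fell: Ptgs2, the inducible form, was at 64.1 CPM on soft and 3.89 CPM on stiff, 16.5-fold lower (13.7 to 20.1). Ptgs1, the constitutive form, was at 213 CPM on soft and 38.9 CPM on stiff, 5.48-fold lower (5.15 to 5.84). Ptges, which makes prostaglandin E2, was at 46.0 CPM on soft and 1.58 CPM on stiff, 29.1-fold lower (21.7 to 39.9). The receptor Ptgfr fell, with 29.5 CPM on soft and 5.30 CPM on stiff, and Ptger4 was at 4.00 CPM on soft and 8.77 CPM on stiff. The median log2 ratio of the list was −0.79, and −0.70 with A83-01.

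Of 65 ion channel genes 14 were higher and 7 lower, and 7 rose and 0 fell. P2rx1, the ATP-gated channel of smooth muscle, rose, with 0.239 CPM on soft and 3.82 CPM on stiff, 16.0-fold higher (7.83 to 37.9), as did Kcnmb1, the smooth muscle subunit of the large calcium-activated potassium channel, with 0.986 CPM on soft and 5.50 CPM on stiff. Kcnd3 was at 2.90 CPM on soft and 17.4 CPM on stiff, 5.995-fold higher (4.82 to 7.53). Itpr1, the calcium release channel, was at 35.3 CPM on soft and 70.8 CPM on stiff. Kcnj8 and Abcc9, which form the ATP-sensitive channel of pericytes, were at 37.6 CPM on soft and 45.9 CPM on stiff and 130.0 CPM on soft and 134 CPM on stiff, within 2-fold.

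Complement genes were the lowest list after the secreted defence and cytokine genes. The minimum was reached by 26 of 38 listed, and 18 of these were at least 2-fold lower and 3 higher. The median log2 ratio was −1.97, and −0.63 with A83-01. The lower genes included proteases that start the cascade, middle components and lytic ones. The furthest higher was C1qa, a chain of the recognition protein C1q and also a macrophage marker, which rose, with 0.0598 CPM on soft and 1.79 CPM on stiff, 29.9-fold higher (7.88 to 254). Of the starting proteases, C1r was at 2473 CPM on soft and 619 CPM on stiff, 4.00-fold lower (3.93 to 4.06). C1s was at 1174 CPM on soft and 122 CPM on stiff, 9.63-fold lower (9.31 to 9.97). The lectin pathway protease Masp1 was at 151 CPM on soft and 14.9 CPM on stiff, 10.2-fold lower (9.21 to 11.2). Their shared inhibitor Serping1 was at 975 CPM on soft and 89.5 CPM on stiff, 10.9-fold lower (10.5 to 11.3). In the middle of the cascade, C4b was at 28.1 CPM on soft and 2.61 CPM on stiff, C3 at 696 CPM on soft and 1.14 CPM on stiff, and factor B, Cfb, at 16.7 CPM on soft and 0.894 CPM on stiff, 18.7-fold lower (12.6 to 28.9). Of the lytic components C6 was at 39.7 CPM on soft and 2.58 CPM on stiff, 15.4-fold lower (12.2 to 19.7), whereas C7 rose, with 31.2 CPM on soft and 81.1 CPM on stiff, 2.60-fold higher (2.41 to 2.79). The regulator Cd55 fell, with 64.6 CPM on soft and 16.3 CPM on stiff, and Clu, clusterin, which blocks lysis, rose, with 28.7 CPM on soft and 76.1 CPM on stiff.

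Complement genes divided when set beside the pair with A83-01. In the additive test 3 rose and 7 fell. C4b, C6 and Serping1, each at least 10-fold lower without the inhibitor, had log2 ratios of 0.86, -0.34 and -0.64 with it. C3 and Cfb had log2 ratios of -5.50 and -2.56 there. C4a and C4b are near-identical copies whose reads the counting may have split, and C4a was at 34.9 CPM on soft and 3.72 CPM on stiff.

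Of 15 secreted defence proteins, 10 were lower and 3 higher. Lcn2, which withholds iron from bacteria, was at 1205 CPM on soft and 4.30 CPM on stiff, 280.3-fold lower (235 to 337), adjusted p = 0.0130 by edgeR's additive quasi-likelihood test. The copper ferroxidase Cp was at 655 CPM on soft and 39.8 CPM on stiff, 16.4-fold lower (15.5 to 17.4). The long pentraxin Ptx3 was at 139.5 CPM on soft and 12.9 CPM on stiff, 10.8-fold lower (9.76 to 12.1). Acod1, which makes itaconate in activated macrophages, had 154 counts on soft matrix but 0 on stiff, 44.6-fold lower at the floor of 3 counts. The 3 higher members were Lbp, Lyz2 and Wfdc1. Lbp, which carries lipopolysaccharide to its receptor, was at 4.18 CPM on soft and 151 CPM on stiff, 36.1-fold higher (30.5 to 43.0). Lyz2, lysozyme, was at 1.58 CPM on soft and 23.5 CPM on stiff, 14.8-fold higher (11.2 to 20.0). Wfdc1 was at 1.25 CPM on soft and 19.0 CPM on stiff. With A83-01, Lcn2 was at 1491 CPM on soft and 19.2 CPM on stiff and Slpi at 477 CPM on soft and 6.56 CPM on stiff. Lbp was at 1.52 CPM on soft and 14.8 CPM on stiff there, and Lyz2 at 1.01 CPM on soft and 6.09 CPM on stiff. These genes were picked by their difference in the main pair.

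Of 31 genes of the NF-kB pathway, which drives many defence genes, 30 had a ratio below 1. At least 2-fold lower were 10 and higher 0, and 12 fell and 0 rose in the additive test. Feedback inhibitors were among those that fell. Tnip3, a partner of Tnfaip3, had 130 counts on soft matrix but 0 on stiff, 37.6-fold lower at the floor of 3 counts. Nfkbia was at 106 CPM on soft and 33.9 CPM on stiff, 3.14-fold lower (2.93 to 3.38). Tnfaip3, a deubiquitinase, was at 26.5 CPM on soft and 8.43 CPM on stiff, 3.14-fold lower (2.72 to 3.63). Zc3h12a, a ribonuclease that destroys cytokine transcripts, was at 133 CPM on soft and 19.9 CPM on stiff, 6.69-fold lower (6.13 to 7.31). Irak3, a brake on Toll-like receptors, fell, with 184 CPM on soft and 27.9 CPM on stiff, 6.60-fold lower (6.13 to 7.11). Sod2, the mitochondrial superoxide dismutase and a classic target, was at 672 CPM on soft and 62.5 CPM on stiff, 10.8-fold lower (10.3 to 11.3). The median log2 ratio was −0.47 without and −0.47 with A83-01.

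The promoter of Lcn2 is shown because it holds the NF-kB motif, searched on both strands of windows from 250 bases before to 50 after the start of transcription. The sequence is from the RefSeq table of build GRCr8, chr3:36081781-36082030 on the minus strand, 250 bases before the start, 5′ to 3′, with the match in capitals.
Lcn2: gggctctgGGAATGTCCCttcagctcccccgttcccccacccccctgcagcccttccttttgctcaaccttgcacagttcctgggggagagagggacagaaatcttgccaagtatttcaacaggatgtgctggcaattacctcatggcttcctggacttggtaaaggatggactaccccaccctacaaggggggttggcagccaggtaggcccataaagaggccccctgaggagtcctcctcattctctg
Matches stood in the windows of 3 of 10 secreted defence genes with a promoter in the table (Lcn2, Ptx3 and Pglyrp1) and of 0 of 15 complement genes. Of 26 NF-kB pathway genes 12 held it (46.2%), and of the 633 genes 2-fold lower with a window 13.4%. The share was 10.1% of the 9193 measured genes with a window and 7.60% of all 27457 windows. A match is a description of letters, not a binding site.

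Interferon-stimulated genes were low on both matrices, and 8 of 34 were 2-fold lower and 1 higher. Oasl fell, with 6.63 CPM on soft and 0.550 CPM on stiff, 12.05-fold lower (7.26 to 21.4), Usp18 was at 2.66 CPM on soft and 0.275 CPM on stiff, and Isg15 was at 4.18 CPM on soft and 3.30 CPM on stiff. The median was −0.36 without and 0.29 with A83-01. Of 33 genes of antigen presentation none was 2-fold higher and 3 were lower. Cd74, the chaperone of MHC class II, had 192 counts on soft matrix but 0 on stiff, 55.6-fold lower at the floor of 3 counts. B2m, the shared light chain of class I, was at 798 CPM on soft and 695 CPM on stiff. The adhesion molecule Vcam1, which captures leukocytes, was at 21.9 CPM on soft and 2.10 CPM on stiff, 10.4-fold lower (8.04 to 13.8), and Icam1 fell, with 158 CPM on soft and 94.8 CPM on stiff. Of 12 leukocyte adhesion molecules, 1 was at least 2-fold lower (8.33%, against 8.34% of all genes) and 0 higher. A ratio above 1 was found in 5 and below 1 in 7, with a median log2 ratio of −0.19. Beside these stand the leukocyte and macrophage markers: 4 of 12 measured were 2-fold lower and 2 higher, with C1qb, C1qc, Cd3e and Ms4a1 at 0 counts in soft and Cd3e, Cd79a, Ms4a1 and S100a8 at 0 in stiff. Ptprc, carried by all leukocytes, was at 2.90 CPM on soft and 0.791 CPM on stiff, Cd68 at 40.0 CPM on soft and 29.8 CPM on stiff and Csf1r at 9.29 CPM on soft and 3.96 CPM on stiff. The 2 higher markers were C1qa and Lyz2, given above, and both rose. Their part in the defence genes' differences was not tested.

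Sterol genes were higher on the stiff matrix. Of 32 cholesterol synthesis genes 29 had a ratio above 1, 13 were at least 2-fold higher and 1 lower, and 12 rose and 0 fell in the additive test. The median log2 ratio was 0.85, and 0.67 with A83-01. From the first step, Hmgcs1 was at 66.1 CPM on soft and 166 CPM on stiff, 2.51-fold higher (2.38 to 2.64). Further down, Fdps was at 109 CPM on soft and 242 CPM on stiff, 2.23-fold higher (2.15 to 2.33). Cyp51 was at 137 CPM on soft and 349 CPM on stiff, 2.55-fold higher (2.46 to 2.64). The methyl oxidase Msmo1 was at 39.1 CPM on soft and 111 CPM on stiff, 2.85-fold higher (2.67 to 3.04). Dhcr7, a late reductase of the pathway, was 2.33-fold higher (2.15 to 2.52). The lone lower gene was Abca1, the exporter of cholesterol, at 107 CPM on soft and 50.4 CPM on stiff. None of 23 sterol gene windows held the consensus motif of sterol regulatory elements, searched on both strands, against 0.0979% of measured genes (9 of 9193). A pattern this rare could hardly turn up in 23 windows, so its absence shows little about these promoters.

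Fatty acid genes shared part of this. Of 25, 4 were higher and 1 lower, and the desaturases Fads2, with 41.3 CPM on soft and 121 CPM on stiff, and Fads3, with 71.2 CPM on soft and 197 CPM on stiff, rose. The stearoyl desaturases Scd and Scd2 were at 8.99 CPM on soft and 37.7 CPM on stiff and 506 CPM on soft and 1104 CPM on stiff, and Acaca, the committing carboxylase, rose by less than 2-fold, with 45.0 CPM on soft and 79.3 CPM on stiff. Dgat2, which makes triglyceride, fell, with 20.1 CPM on soft and 7.19 CPM on stiff.

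Genes of fat storage lay on the other side, with 14 of 30 lower and 2 higher and a median of −0.93 (−0.22 with A83-01). Apoe, which carries lipid between cells, was at 5426 CPM on soft and 295 CPM on stiff, 18.4-fold lower (17.97 to 18.8), in the main pair and at 6029 CPM on soft and 4540.0 CPM on stiff with A83-01. Lpl, which frees fatty acids from lipoproteins, was at 1397 CPM on soft and 697 CPM on stiff. The adipogenic factors Cebpb and Cebpa fell, with 319.5 CPM on soft and 31.9 CPM on stiff and 26.5 CPM on soft and 12.04 CPM on stiff, and Pparg was at 5.92 CPM on soft and 8.22 CPM on stiff. Plin1, the coat of fat droplets, had 72 counts on soft matrix but 0 on stiff and Adipoq, adiponectin, 66 counts on soft matrix but 0 on stiff. The fatty acid carriers Fabp3 and Fabp5 were higher, with 3.64 CPM on soft and 13.2 CPM on stiff and 53.3 CPM on soft and 158 CPM on stiff. Of 7 measured adipocyte markers 5 were 2-fold lower, and Adipoq, Plin1, Retn and Cidec had 0 counts in stiff and Lep and Cidec in soft. Their part in these differences was not tested.

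Glycolysis and hypoxia genes were mostly lower. Of 32 glycolysis genes 24 had a ratio below 1, 4 were 2-fold lower and 0 higher, and 6 fell. The glycolytic switch Pfkfb3 was at 249.9 CPM on soft and 80.4 CPM on stiff, 3.11-fold lower (2.97 to 3.26), hexokinase Hk2 at 68.0 CPM on soft and 31.6 CPM on stiff, and the lactate carriers Slc16a3 and Slc16a1 at 292 CPM on soft and 122 CPM on stiff and 71.1 CPM on soft and 30.1 CPM on stiff. The core enzymes differed less, with Ldha at 838 CPM on soft and 605 CPM on stiff and Pgk1 at 671 CPM on soft and 438 CPM on stiff. Of 31 hypoxia-induced genes 8 were lower and 2 higher, and 7 fell and 0 rose. Egln3, an oxygen sensor that limits the response, was at 54.2 CPM on soft and 11.2 CPM on stiff, 4.84-fold lower (4.30 to 5.47). Hif1a, the oxygen-regulated transcription factor itself, was at 609 CPM on soft and 206 CPM on stiff, 2.96-fold lower (2.88 to 3.05). Bnip3, a mitophagy receptor, was at 219 CPM on soft and 89.3 CPM on stiff, 2.45-fold lower (2.34 to 2.56). The medians of both lists were lower with A83-01 as well, −0.73 against −0.43 for glycolysis and −0.80 against −0.64 for hypoxia.

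The promoter of Bnip3 is shown as a member with the core ACGTG of hypoxia response elements, with the same conventions and source, at chr1:203154963-203155212 on the minus strand. The capitals mark a palindrome that holds the core on each strand, counted as 2 overlapping matches.
Bnip3: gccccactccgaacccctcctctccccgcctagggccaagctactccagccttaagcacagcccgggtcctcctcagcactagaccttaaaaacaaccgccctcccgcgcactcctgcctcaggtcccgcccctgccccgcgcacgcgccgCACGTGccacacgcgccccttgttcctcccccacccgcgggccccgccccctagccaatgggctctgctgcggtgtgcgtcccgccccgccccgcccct
In 300-base windows ACGTG stood in 17 of 28 hypoxia-induced genes (60.7%) and 14 of 30 glycolysis genes (46.7%), against 25.9% of measured genes and 19.7% of all windows. Among the hypoxia-induced genes with a match were Bnip3, Car9, Hif1a and Car12, at least 2-fold lower, and also Bhlhe41, 2-fold higher.

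Part of the genes for metal binding and oxidative defence fell. Of 40 measured, 11 were 2-fold lower and 1 higher, and 10 fell and 0 rose. The metal-binding metallothioneins fell, Mt2A with 287 CPM on soft and 17.2 CPM on stiff, 16.6-fold lower (15.2 to 18.2), and Mt1 with 68.6 CPM on soft and 7.22 CPM on stiff, 9.49-fold lower (8.24 to 10.99). With A83-01 they were at 515 CPM on soft and 58.8 CPM on stiff and 135 CPM on soft and 14.3 CPM on stiff. Iron storage and release genes were beside them: ferritin heavy chain Fth1 was at 1697 CPM on soft and 696 CPM on stiff, 2.44-fold lower (2.40 to 2.48), and haem oxygenase Hmox1 at 380.3 CPM on soft and 143 CPM on stiff, 2.66-fold lower (2.57 to 2.76). The zinc and iron importer Slc39a14 fell, with 642 CPM on soft and 161 CPM on stiff, 3.99-fold lower (3.87 to 4.12). Of the superoxide dismutases, Sod2 is given above, and the extracellular Sod3 was at 527 CPM on soft and 47.4 CPM on stiff, 11.1-fold lower (10.5 to 11.8). The glutathione transferase Gsta4 fell, with 36.2 CPM on soft and 1.34 CPM on stiff, 27.0-fold lower (19.6 to 38.1). The higher member was Nqo1, a quinone reductase, at 54.3 CPM on soft and 119 CPM on stiff.

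Metallothionein promoters are shown because these neighbouring genes fell together and are classic targets of the metal-sensing factor Mtf1. Both lie on the minus strand of chromosome 19, Mt1 at chr19:10832976-10833225 and Mt2A at chr19:10838709-10838958, printed as above. The capitals mark matches on either strand to TGCNCNC, a loose pattern searched here for metal response elements, 7 in Mt1 and 5 in Mt2A. Not every match need be the core of such an element.
Mt1: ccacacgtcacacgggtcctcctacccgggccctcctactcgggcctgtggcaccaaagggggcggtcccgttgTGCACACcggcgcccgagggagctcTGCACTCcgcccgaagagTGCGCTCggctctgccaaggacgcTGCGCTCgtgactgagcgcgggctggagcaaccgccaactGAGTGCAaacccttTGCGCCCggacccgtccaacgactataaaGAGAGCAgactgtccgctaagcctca
Mt2A: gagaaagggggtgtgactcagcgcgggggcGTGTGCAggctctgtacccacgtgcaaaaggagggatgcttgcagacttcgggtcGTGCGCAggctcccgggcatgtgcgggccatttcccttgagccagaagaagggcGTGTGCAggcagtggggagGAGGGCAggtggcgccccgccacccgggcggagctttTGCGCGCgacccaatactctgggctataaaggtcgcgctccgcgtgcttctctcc
At least 2 such matches stood in the windows of 11 of 30 genes of the list (36.7%), against 28.0% of measured genes and 19.3% of all windows. The list's share was thus little above that of measured genes.

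Amino acid genes were higher in the main pair only by their own counts: 8 of 44 genes of amino acid stress and serine synthesis were 2-fold higher and 1 lower, while 1 rose and 2 fell. Phgdh, the first enzyme of serine synthesis, rose, with 23.8 CPM on soft and 82.1 CPM on stiff, 3.44-fold higher (3.18 to 3.73). Nupr1, a stress-induced nuclear protein, was at 15.6 CPM on soft and 111 CPM on stiff, 7.11-fold higher (6.48 to 7.81). The pseudokinase Trib3 was at 28.8 CPM on soft and 104 CPM on stiff. The amino acid carriers Slc7a5 and Slc1a4 were at 98.6 CPM on soft and 249 CPM on stiff and 63.1 CPM on soft and 139 CPM on stiff. The median was 0.52 without and −0.17 with A83-01. Of 84 ribosomal protein genes 77 had a ratio above 1, 6 were 2-fold higher and 1 lower, with a median of 0.46 (0.09 with A83-01). The lower gene, Rplp2, fell, with 119 CPM on soft and 56.4 CPM on stiff. Rps6 was at 403 CPM on soft and 641 CPM on stiff and Rpl3 at 814 CPM on soft and 1027 CPM on stiff. Ribosomal protein genes have many near-identical copies, which makes the small ones uncertain.

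Of 202 measured solute carriers, 32 were lower and 9 higher, and 18 fell and 3 rose. The largest called difference was the dicarboxylate carrier Slc13a3, with 5.44 CPM on soft and 0.103 CPM on stiff, 52.7-fold lower (17.7 to 258). Slc11a1, which pumps metal from phagosomes, fell, with 7.86 CPM on soft and 0.688 CPM on stiff. Slc2a12, a glucose transporter, was at 1.67 CPM on soft and 12.3 CPM on stiff, 7.36-fold higher (5.54 to 9.94), and the main glucose transporter Slc2a1 at 184 CPM on soft and 93.0 CPM on stiff. Slc8a1, the sodium-calcium exchanger, rose, with 5.62 CPM on soft and 14.7 CPM on stiff. Of 25 retinoid and aldehyde dehydrogenase genes 7 were lower and 1 higher. Rbp4, the plasma carrier of retinol, fell, with 16.8 CPM on soft and 1.89 CPM on stiff, and Aldh1a3, which makes retinoic acid, with 3.26 CPM on soft and 0.310 CPM on stiff, while Rarres1, named as a gene that retinoids induce, rose, with 6.99 CPM on soft and 60.6 CPM on stiff, 8.67-fold higher (7.56 to 9.98).

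Several housekeeping lists held few genes past 2-fold. There were 0 in either direction among 28 of the tricarboxylic acid cycle, 37 of the proteasome, 55 of folding and secretion in the endoplasmic reticulum, 13 encoded by mitochondria and 66 of mitosis. In the additive test these 5 lists also had 0 genes passing. Of 82 nuclear genes of oxidative phosphorylation 2 were higher and 1 lower. Cox4i2, a subunit of hypoxic and pericyte mitochondria, was at 30.7 CPM on soft and 9.36 CPM on stiff. Of 45 lysosome and autophagy genes 1 was lower, Gpnmb, at 703 CPM on soft and 318 CPM on stiff. The chaperone Hspa5 was at 619 CPM on soft and 1059 CPM on stiff.

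Cell cycle genes were close between the matrices without the inhibitor. Of 66 mitosis genes 54 had a ratio above 1, with a median of 0.28, and of 59 DNA replication genes 49, with a median of 0.26. Scaling by total counts alone moved the median of all genes by −0.24, close in size to both medians. Mki67, a marker of cycling cells, was at 85.7 CPM on soft and 132 CPM on stiff, 1.54-fold higher (1.46 to 1.61), and Mcm2, of the replicative helicase, at 43.4 CPM on soft and 64.1 CPM on stiff. In the pair with A83-01 the mitosis median was 1.12, and 45 of 66 were at least 2-fold higher. The difference between both pairs was not tested. Ccnd1, the cyclin that growth factors induce, was at 38.0 CPM on soft and 13.1 CPM on stiff, 2.89-fold lower (2.58 to 3.25), while Ccnd2 rose, with 10.5 CPM on soft and 24.7 CPM on stiff. Btg1, an antiproliferative gene, fell, with 238 CPM on soft and 91.1 CPM on stiff, and the inhibitor Cdkn1a was at 106 CPM on soft and 123 CPM on stiff.

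Early and stress genes differed one by one. Of 40 immediate early and AP-1 genes 2 were higher and 4 lower. The nuclear receptor Nr4a1 fell, with 422 CPM on soft and 36.6 CPM on stiff, 11.5-fold lower (10.8 to 12.3), and Fosl1 with 21.6 CPM on soft and 4.20 CPM on stiff, 5.15-fold lower (4.25 to 6.30), whereas Arc rose, with 4.63 CPM on soft and 19.1 CPM on stiff. Fos, Jun and Egr1 were at 13.2 CPM on soft and 15.9 CPM on stiff, 74.8 CPM on soft and 89.1 CPM on stiff and 386 CPM on soft and 249 CPM on stiff. Of 38 heat shock genes 5 were higher and 0 lower. The inducible Hspa1b and Hspa1a, near-identical copies, rose, with 10.1 CPM on soft and 35.8 CPM on stiff for Hspa1b, as did the small muscle chaperones Cryab and Hspb2, with 19.4 CPM on soft and 63.3 CPM on stiff for Cryab. Hsp90aa1 was at 181 CPM on soft and 198 CPM on stiff.

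Transcription factors of mesenchyme went both ways. Wt1, a factor of mesothelium and scar-forming cells, was at 0.269 CPM on soft and 5.61 CPM on stiff, 20.9-fold higher (10.7 to 46.4), but at a log2 ratio of 0.42 with A83-01. Snai2 rose, with 24.4 CPM on soft and 74.7 CPM on stiff, 3.06-fold higher (2.82 to 3.32), and so did Foxs1, a pericyte factor, with 39.2 CPM on soft and 99.6 CPM on stiff. Twist2 fell, with 109 CPM on soft and 48.5 CPM on stiff, and Twist1 was at 77.0 CPM on soft and 107 CPM on stiff. Of 54 homeobox and T-box genes that keep positional identity, 7 were lower and 1 higher. Irx1 fell, with 19.3 CPM on soft and 9.32 CPM on stiff, and Tbx3 was at 18.3 CPM on soft and 5.33 CPM on stiff. Hoxa9 was at 7.98 CPM on soft and 2.65 CPM on stiff and Hoxc10 at 22.7 CPM on soft and 22.7 CPM on stiff. Of 19 genes of cartilage and bone lineages 8 were higher and 3 lower. Cilp, a cartilage matrix protein, rose, with 1.58 CPM on soft and 15.2 CPM on stiff, 9.60-fold higher (7.21 to 13.0), Sox9, the cartilage regulator, was at 2.15 CPM on soft and 8.84 CPM on stiff, and Prg4, lubricin, fell, with 14.2 CPM on soft and 0.826 CPM on stiff, 17.2-fold lower (11.4 to 27.2).

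For reference, 16 of 26 contractile genes reached 2-fold higher and 1 reached 2-fold lower, and 25 of 39 cytokine and chemokine genes were lower and 3 higher. They are thus few among the 704 higher and 1110 lower genes. A CArG box, the motif of serum response factor, stood in 4 of 20 contractile gene windows (20%), those of Cnn2, Ldb3, Actc1 and Acta1, of which Acta1 was 2-fold higher and Ldb3 2-fold lower. It stood in 1.70% of the genes 2-fold higher and in 1.23% of measured genes.

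Without and with A83-01 the stiffness pairs share no library, and their values stand side by side. With A83-01, 818 of the 13312 genes (6.14%) reached 2-fold higher on stiff and 847 (6.36%) lower. Of the 704 genes higher without it, 614 (87.2%) had the same sign with it, 357 (50.7%) were also at least 2-fold higher, 334 were neither and 13 were at least 2-fold lower. Of the 1110 lower genes, 994 (89.6%) had the same sign, 565 (50.9%) were also 2-fold lower and 13 were 2-fold higher. As shares of the calls with A83-01, the common genes made up 43.6% of the higher and 66.7% of the lower. Among genes past 4-fold without the inhibitor, 143 of 192 higher and 277 of 372 lower ones were past 2-fold in the same direction with it. Of the 704 higher genes 263 rose in the additive test, and of the 1110 lower genes 384 fell.

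Genes on the same side by much the same amount included Cntn2, Tinagl1, Tgfb3 and Ctgf, with log2 ratios of 6.43, 4.94, 4.69 and 3.97 with A83-01 against 6.25, 5.01, 5.05 and 3.99 without. Genes apart without but within 2-fold with the inhibitor included Apoe, Fbln2 and Sfrp1, with -0.41, 0.79 and -0.02 against -4.20, 3.87 and -2.87. Whether the inhibitor altered the response of any of these genes was not tested, since no library is replicated.

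**Figure D4:**
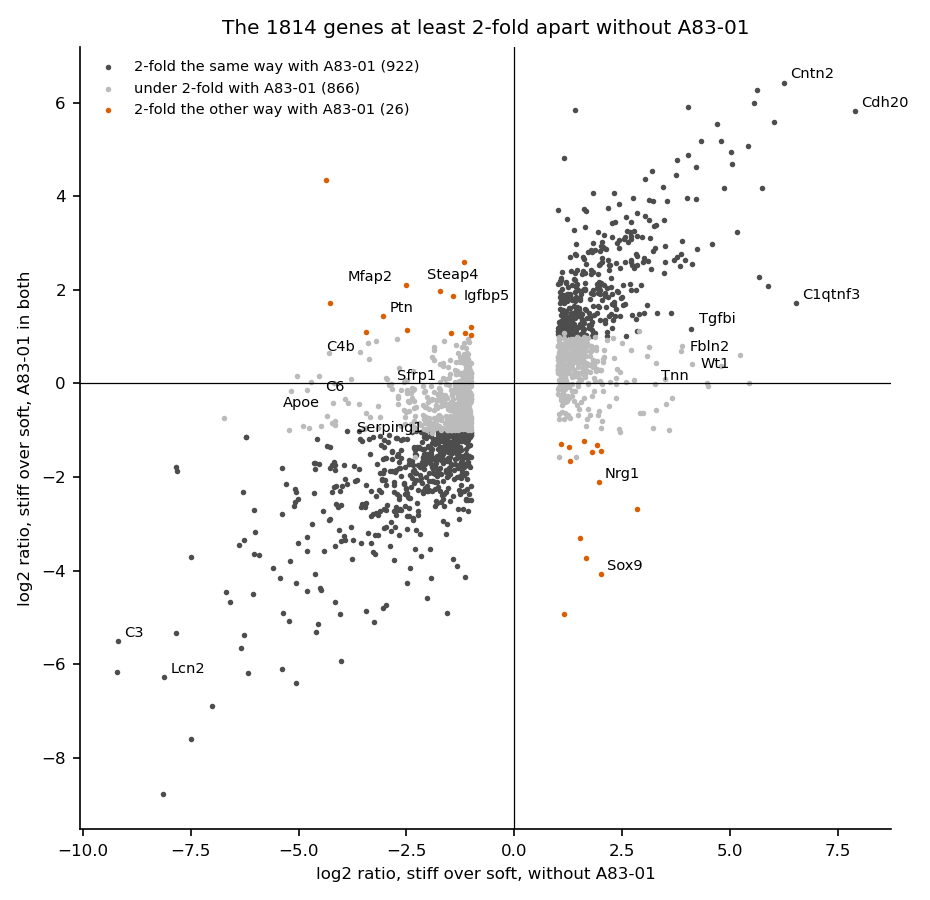
Each point is 1 of the 1814 genes at least 2-fold apart without A83-01, with the log2 ratio of stiff over soft without A83-01 on the x axis and with A83-01 in both libraries on the y axis. The 922 dark points are 2-fold the same way in both pairs, 866 light points are under 2-fold with A83-01 and 26 orange points, among them Ptn and Sox9, are 2-fold the other way.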

How the data were processed

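Per the labels, mRNA was selected with oligo(dT) beads, reverse transcribed from random hexamers and sequenced in pairs on a DNBSEQ-T7. The authors deposited whole-number read counts and FPKM values per gene and library. Per the submitters' processing notes, the tools were HISAT2 and edgeR and the genome was Rnor_6.0, with no counter named. Groups came from the sample descriptions.

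CPM were scaled with TMM factors over 4 libraries. The log2 ratio used a prior count of 2, and a plain ratio of CPM with its 95% conditional Clopper-Pearson interval covers counting error only, since no molecular identifiers are mentioned. A 0 was replaced by a floor of 3 counts. The fold at that floor is not a lower bound, since the counting interval reaches lower. The test was edgeR 4.0.16's quasi-likelihood test (R 4.3.3), with a common dispersion of 0.0341. The script was tested on simulated data with purely additive effects and biological coefficients of variation of 0.05 and 0.1. The value fitted to these libraries was 0.185, so recovery at their spread was not tested. Alternatives used total-count and DESeq2 1.42.0 scaling, the FPKM with a pseudocount of 0.1, other minimums and priors, DESeq2's Wald test and limma 3.58.1.

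The members and the 73 gene lists were chosen with earlier results of these data known. Named genes are, in each list, up to 4 members furthest apart in each direction by the nearer bound and textbook members set beforehand, and the 25 highest and lowest genes overall. A further 54 were named after their values were seen. Names without a gene symbol (1764 members) are counted only, and some named genes and 1 list are not reported here. Promoters are RefSeq's, build GRCr8, matched by symbol for 9193 members.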

Additional observations from a re-analysis of the deposited data

Results flagged for a closer look

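A set of 20 named genes was at least 2-fold apart in one direction without A83-01 and at least 2-fold in the other with it, of 26 such genes in all. They are given because both pairs of libraries went opposite ways. With 1 library per group the difference between the pairs was not tested, and no library is shared between them. Each pair of values below is the log2 ratio of stiff over soft, first without and then with A83-01.

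Lower on stiff without and higher with the inhibitor were 9 genes. Among secreted signals, Fgf18 was at -4.26 and 1.72, the chemokine Cxcl14 at -3.43 and 1.10, and pleiotrophin, Ptn, at -3.03 and 1.43. The microfibril gene Mfap2 was at -2.52 and 2.11, the pericyte marker Steap4 at -1.73 and 1.97, and the adrenomedullin coreceptor Ramp3 at -1.47 and 1.08. Igfbp5 was at -1.42 and 1.86, the galectin Lgals9 at -1.17 and 2.59, and the insulin-regulated glucose transporter Slc2a4 at -1.002 and 1.04.

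Higher without and lower with it were 11. Of transcription factors, Sox9 was at 2.01 and -4.06, Lef1 at 1.80 and -1.45, Bcl11b at 1.29 and -1.66, Myrf at 1.08 and -1.28, and the cofactor Sertad4 at 1.61 and -1.23. Of signals, Il10 was at 2.83 and -2.68 and Nrg1 at 1.95 and -2.10. The protease Mmp16 was at 1.51 and -3.30, the copine Cpne4 at 1.66 and -3.73, the lectin Siglec1 at 1.91 and -1.31, and Nsg2 at 2.01 and -1.44. Levels were low in several: Il10 stood at 0.179 CPM on soft and 1.65 CPM on stiff, and Mmp16 at 0.418 CPM on soft and 1.31 CPM on stiff. With A83-01, Sox9 stood at 0.955 CPM on soft and 0 CPM on stiff, and Fgf18 at 0.239 CPM on soft and 0.926 CPM on stiff. Lef1 was at 2.18 CPM on soft and 0.757 CPM on stiff there, and Bcl11b at 1.46 CPM on soft and 0.421 CPM on stiff.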

How the results depend on the processing

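No call was reversed under any alternative run, over 72 lists and 562 named genes. A reversal meant a changed sign of a named gene at least 2-fold apart or of a list median of at least 1 in size. Scaling moved the median log2 ratio of all genes by −0.24 at most, so a reversal could hardly occur and its absence shows little. Of 3372 alternative values of named genes, 762 moved beyond their counting interval, 340 of 562 with total-count scaling and 388 with the FPKM. A minimum of 5 CPM left 457 genes 2-fold higher and 655 lower, and 120 and 212 past 4-fold. Without a minimum, 348 genes were 4-fold higher and 654 lower. With the FPKM 126 were 4-fold higher. In the additive test, total-count scaling gave 612 up and 1128 down, DESeq2 gave 567 and 725, and stiffness alone in the model 21 and 22. The cause of these differences was not tested. At an unadjusted p of at most 0.05, edgeR's test had 1627 up and 1777 down. At least 1 alternative changed the sign of 24 list medians. No paired analysis was possible because each group holds 1 library. Leaving out a library could not be fitted, since 0 residual degrees of freedom remain. Depth limits genes near the floor of 3 counts, about 0.1 CPM.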

Other observations

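Some genes not yet described, picked after their values were seen, also stood apart. Ccdc80, a secreted matrix protein, rose, with 697 CPM on soft and 4920.0 CPM on stiff, 7.06-fold higher (6.97 to 7.16). Sparc, a collagen-binding member of the matricellular list often called osteonectin, was at 13135 CPM on soft and 25869.8 CPM on stiff, 1.97-fold higher (1.96 to 1.98). Lrp1, a receptor that clears proteases and lipoproteins, fell, with 5617 CPM on soft and 1903 CPM on stiff, 2.95-fold lower (2.92 to 2.98). Cpxm1, a secreted carboxypeptidase-like protein, was at 1168 CPM on soft and 65.0 CPM on stiff, 17.98-fold lower (17.2 to 18.8). The vitamin D receptor Vdr was at 1.82 CPM on soft and 21.0 CPM on stiff, 11.5-fold higher (8.83 to 15.2), and its log2 ratio with A83-01 was 0.09.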
